A study of Mus musculus with 4 samples.

Results

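The transcripts described here come from genes of the splicing machinery: the core small nuclear ribonucleoproteins (snRNPs) of the spliceosome and the RNA-binding motif (RBM) proteins. They were chosen by name, as every row of a protein-coding gene in GENCODE (GRCm38) whose symbol begins with Rbm, Sf3a, Sf3b, Prpf, Snrn, Snrp or U2af, with Rbm14 left out. This gave 58 genes with 176 rows, out of 19284 genes and 37363 rows in all. A row carries a gene identifier and a value but no transcript name, and is called a model; models are numbered within a gene in descending order of their mean. The study treated primary mouse hepatocytes, the parenchymal cells of the liver, with non-essential amino acids (NEAA) and asked how this affects long non-coding RNA. There were 2 NEAA samples and 2 control samples of the same cells, which were not given NEAA. Total RNA was sequenced, and the values are FPKM, fragments per kilobase of model, scaled to the size of the mapped library. Strain, age and sex of the animals, the dose and time of NEAA, and whether the samples of a group came from separate animals or cultures were not given in the sources used here. The p-values therefore measure only how these samples spread, which may be technical.

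The spliceosome removes introns from pre-mRNA in an ordered series of steps. The U1 snRNP pairs with the start of the intron, the U2AF proteins bind the pyrimidine-rich tract and the AG at its end, and the U2 snRNP, with the SF3A and SF3B proteins, takes up the branch site between them. The tri-snRNP of U4, U6 and U5 then joins, and the PRP19-associated complex (NTC) holds the catalytic centre. A separate minor spliceosome removes a rare class of introns, and many RBM proteins shift the choice between competing splice sites. Genes of this machinery are known for keeping introns in a share of their own transcripts, and such transcripts often stay in the nucleus or are degraded.

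The files appear to hold mainly such transcripts of these genes, judged only by counts, since models carry no transcript names. By the same rule GENCODE M21 lists 90 genes, and the 58 with rows each had as many models as annotated retained-intron transcripts. The other 32 genes have no annotated retained-intron transcript. Over all 9266 protein-coding identifiers in the files, the numbers were equal for 8991. The sums given per gene below are sums over these models. On this reading they are not levels of the coding mRNA, which was not analysed here. Of the 176 annotated retained-intron transcripts of the 58 genes, 175 have bases outside every coding exon, at a median of 45.8% of their length. A whole intron of a coding transcript lies inside an exon of 53 of them (30.1%), against 30.2% of the 21240 retained-intron transcripts of other protein-coding genes. These 53 transcripts hold 67 distinct introns of 29 genes, with a median length of 402 bases and a median GC content of 45.9%, against 277 bases and 51.4% for introns retained in other protein-coding genes. Some of the 67 overlap each other, and an intron of one coding transcript can hold exon bases of another. Of the 67 introns, 65 (97.0%) start with GT and end with AG, against 97.9% in the other genes. None of the 67 starts with GTATCCTT or ATATCCTT, the donor letters of minor-spliceosome introns read on the transcript strand, against 0.453% of introns in the other genes.

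The ends of 6 of these introns are printed, as the stretches that the U1 snRNP and U2AF read. They come from genes whose own products take part in that reading or whose values the results turn on. Letters were read on the transcript strand from the GENCODE M21 transcripts (GRCm38). In each donor the last 3 exon bases precede the first 6 intron bases, which are in capitals, and in each acceptor the AG that ends the intron is in capitals. Snrnp70 has its intron at chr7:45392134-45392262 (minus strand), Snrpa at chr7:27195557-27195990 (minus), U2af2 at chr7:5068797-5069443 (plus), Sf3b3 at chr8:110843015-110844462 (minus), Rbm8a at chr3:96630029-96630301 (plus) and Snrnp48 at chr13:38217496-38220687 (plus).
Snrnp70 donor: aagGTATGCtgtttttacct
Snrnp70 acceptor: cttcttttttctactggcAGaga
Snrpa donor: gtgGTGGGTtcccgcgggtt
Snrpa acceptor: gctttttcctcctctttaAGccg
U2af2 donor: caaGTAAGGtccattctgac
U2af2 acceptor: gtctcctattccctctgcAGgag
Sf3b3 donor: ctgGTAAGTgctacaggtag
Sf3b3 acceptor: tctttattttggtaatttAGgaa
Rbm8a donor: acgGTGAGGagagtggaggc
Rbm8a acceptor: tttctcacctggaactctAGaaa
Snrnp48 donor: gagGCAAGTttcacatgctt
Snrnp48 acceptor: tggtttttccttcttccaAGgtg

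All of these donors begin with GT except that of Snrnp48, a subunit of the minor spliceosome, which begins with GC and is the one intron of the 67 with GC at its start and AG at its end. The remaining one, annotated in U2af2 at chr7:5079501-5079583 (plus strand), starts with GG. The Rbm8a transcript has 131 bases outside every coding exon, fewer than the 273 of the printed intron. Part of that intron is thus exon in another coding transcript. The U2af2 transcript that holds both of its introns has 649 such bases, against 730 bases of intron. The files do not say which model is which transcript, so no value below belongs to one of these introns.

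The values ranged widely. Of the 176 models, 93 from 37 genes averaged at least 1 FPKM across the 4 samples and were tested, 83 lay below that limit, and 5 of these were listed at 0 in all 4 samples. Just above the limit were Rbm5 model 8 and Rbm22 model 2, both with a mean of 1.002 FPKM, and Sf3b1 model 3 with 1.003 FPKM. Just below it were Rbm22 model 3 with 0.962 FPKM, Rbm42 with 0.961 FPKM and Rbms2 model 1 with 0.950 FPKM. Summed over its models, a gene had to reach the same mean, and 44 of the 58 genes did. The 58 genes together summed to 283.0 and 298.3 FPKM in the NEAA samples, against 337.7 and 344.6 FPKM in the control samples, and both NEAA samples were below both control samples.

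All values of a library are relative to its total. The FPKM of all models summed to 65718.5 and 60942.0 in the NEAA samples and to 73600.1 and 73376.5 in the control samples, and 2 loci, Gm26917 and Gm42418, held 49.4% and 46.1% of it in NEAA and 52.9% and 50.4% in control. Without these loci the splicing genes made up 0.851% and 0.907% of the sum in NEAA and 0.974% and 0.948% in control. FPKM files carry no counts, but in protein-coding genes with 1 model and 1 annotated retained-intron transcript, FPKM times transcript length in kilobases recurred at one low value, in 36 and 22 genes of the NEAA samples and 35 and 26 genes of the control samples (within 0.5%), where windows of the same width held a median of 1 to 2 genes. Read as the worth of 1 fragment, this value corresponds to 26.5 and 25.2 fragments (in units of 1000000) in NEAA and 25.3 and 27.9 in control. Fragment numbers given below are estimates on that reading. Across all tested models, log2(FPKM + 1) correlated at r = 0.862 between the NEAA samples and 0.869 between the control samples, against 0.744 to 0.776 between groups, as a description over models, which are not independent.

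The label of hepatocytes could be checked only in part, since 3 of 15 hepatocyte markers have models. These, Trf, Ass1 and Cyp2e1, summed to 58.9 and 59.2 FPKM in NEAA, against 24.0 and 30.6 FPKM in control. Most of it was Trf, the plasma iron carrier transferrin, with a mean of 40.89 FPKM over the samples. Ass1 had a mean of 2.22 FPKM and Cyp2e1 only 0.06 FPKM, below the macrophage marker Ptprc at 0.99 FPKM. The other 12 hepatocyte markers were not analysed here. The markers of other liver cells were low. All of these are sums over models and are not taken as mRNA levels, so low values cannot show that a cell type was absent. The 2 of 7 macrophage markers summed to 0.53 and 1.69 FPKM in NEAA and 0.828 and 0.962 FPKM in control. The 5 of 6 endothelial markers summed to 1.46 and 1.16 FPKM in NEAA and 1.32 and 0.673 FPKM in control, with Clec4g at 0, and the 5 of 7 stellate cell and fibroblast markers to 1.73 and 1.38 FPKM in NEAA and 1.41 and 1.24 FPKM in control. Krt7, the one cholangiocyte marker of 5 with models, stayed between 0 and 0.0118 FPKM, and the 4 of 5 red blood cell markers between 0.0118 and 0.0467 FPKM, with Hba-a2 and Hbb-bs at 0. The part of these markers in the results below was not tested. In bulk samples, fewer cells of a type and less RNA per cell cannot be told apart.

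Few of the splicing models passed the test between NEAA and control. With limma on log2(FPKM + 1), adjusted over the 6064 models tested in the series, 1 of the 93 models was called lower in NEAA at an adjusted p under 0.05, and 0 were called higher. In the series 0.956% of models were called lower and 1.95% higher. The unadjusted p was under 0.05 for 15 of the 93 (16.1%), where it was for 25.9% of all models tested. The median log2 fold change, NEAA over control, was -0.16 over the 93 models and -0.09 over all models, with a range from -1.10 to 0.47 among the 93, and 67 of them (72%) were negative against 58.9% of all models. Both NEAA samples lay below both control samples in 40 of the 93 models and above them in 10, that is 43% and 10.8%, where 36% and 22.8% of all models did so. With 2 samples a group, an exact permutation test of one value cannot go below p = 0.333, so every call rests on spread shared over models.

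On gene sums, 2 of the 44 genes were called lower, Rbm8a and Rbm41, and 0 higher, where 4.11% of the 4700 gene sums of the series were called lower and 6% higher. The share of the splicing genes called lower, 4.55%, is close to that of the series. The unadjusted p was under 0.05 for 12 of the 44 (27.3%), where it was for 30.7% of all gene sums tested. The median log2 fold change of the sums was -0.22 over the 44 genes and -0.06 over all genes, and 32 of the 44 (72.7%) were negative against 55.1% of all. Both NEAA samples were below both control samples in 22 of the 44 genes (50%), where 34.4% of all gene sums were, and above them in 6 (13.6%), where 26.2% were. The plot of change against level shows the 44 genes among all gene sums.

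**Figure D1:**
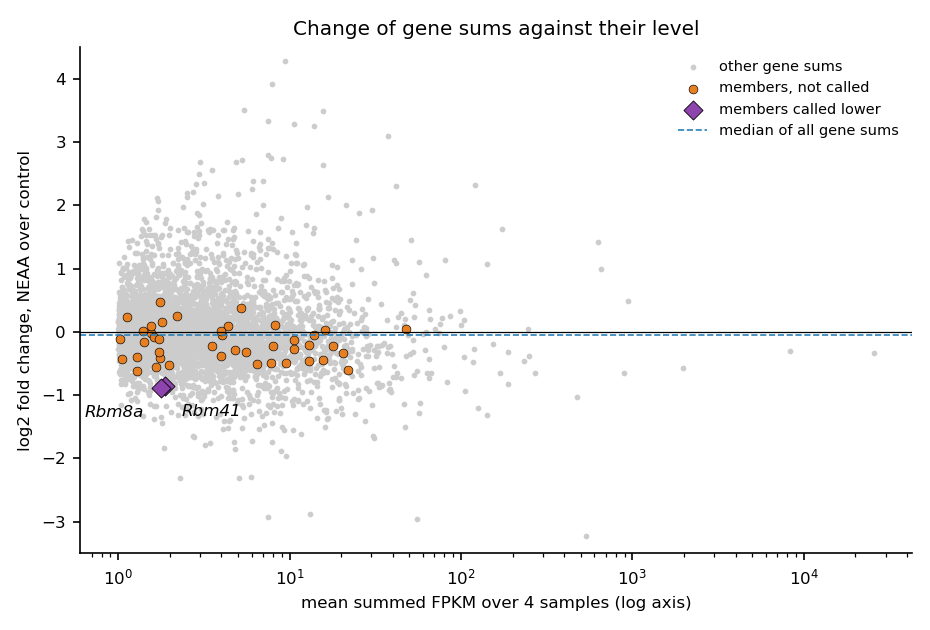
Log2 fold change of each tested gene sum, NEAA over control (vertical axis, log2(FPKM + 1) scale), against its mean summed FPKM over the 4 samples (log axis). Orange circles are the 42 splicing genes not called, purple diamonds are Rbm8a at -0.89 and Rbm41 at -0.86, grey points are the other gene sums, and the dashed line is the median of all gene sums at -0.06.

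These medians changed when the libraries were rescaled. When each library was rescaled to the same sum without Gm26917 and Gm42418, the median became -0.13 over the 44 splicing genes and 0.02 over all gene sums, and for models -0.08 over the 92 splicing models then tested and -0.02 over all models. Every library was also rescaled to a sum of 1000000, which keeps lower genes in the test. The pseudocount, the constant added before taking log2, was not rescaled, so it weighed less against these higher values. The medians were then -0.04 over 55 splicing genes and 0.18 over all gene sums. For models they were -0.02 over 164 splicing models and 0.15 over all models. The effects of scale, filter and pseudocount at that sum were not separated. The splicing genes' median was thus below that of all features under each of these scalings, while its own value came near 0 under the last.

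Of the 5 U1 snRNP genes, 4 gene sums were tested and 0 called. These were Snrnp70, Prpf39, Snrpa and Prpf40b. Each was lower in both NEAA samples than in both control samples, where 34.4% of all gene sums were. Their median log2 fold change was -0.48, against -0.06 over all gene sums. Prpf40b, counted in both, reached the limit only through its control samples. It had 0.752 and 0.718 FPKM in NEAA, against 1.09 and 1.63 FPKM in control, and none of its models reached the limit alone (highest mean 0.4 FPKM). The fifth gene, Snrpc, was under the limit and overlapped, with 0.659 and 0.691 FPKM in NEAA and 0.973 and 0.445 FPKM in control. All 14 tested U1 models had a negative log2 fold change, where 58.9% of all models did, and 1 of them was called. These models come from only 3 genes, and models of one gene are not independent. Snrnp70 encodes the U1-70K protein, which grips a stem of U1 RNA and contacts splicing activators. It lies on chromosome 7 (GRCm38 45376453 to 45395742, minus strand) and has 9 models.

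Model 7 of Snrnp70 was the one called model of the 93. It had 1.12 and 1.16 FPKM in the NEAA samples, against 3.63 and 3.56 FPKM in the control samples. The samples of each group lay close together, and the groups were far apart. The log2 fold change was -1.10 with an SE of 0.11 (limma, adjusted p = 0.036). On the retained-intron lengths annotated for the gene, 579 to 4008 bases, the model rests on about 17 to 119 fragments in each NEAA sample and 53 to 397 in each control sample. The call was lost without a filter on level (adjusted p = 0.102), after rescaling to a sum of 1000000 (0.0769), with the replicate number as a block (0.138) and when any one sample was left out (0.146 to 0.187 by limma), while the log2 fold change without one sample stayed between -1.12 and -1.09.

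The other Snrnp70 models pointed the same way with more spread. Model 1 had 2.73 and 3.26 FPKM in NEAA, against 3.90 and 4.38 FPKM in control, and model 2 had 1.90 and 3.24 FPKM against 4.68 and 3.83 FPKM in control. Model 8 had 0.906 and 1.07 FPKM in NEAA, against 2.05 and 1.85 FPKM in control (limma, adjusted p = 0.0931). Models 4 and 6 overlapped between groups. Model 9, below the limit for the test, had 0.0557 and 0.318 FPKM in NEAA, against 0.744 and 0.625 FPKM in control. Summed over the 9 models, Snrnp70 had 16.7 and 17.6 FPKM in NEAA, against 26.2 and 27.1 FPKM in control (log2 fold change -0.61, SE 0.13, limma adjusted p = 0.0547), which missed the threshold. Whether model 7 changed more than the other Snrnp70 models was tested with limma's diffSplice, and the difference of -0.72 in log2 fold change did not pass (FDR = 0.19). A snoRNA gene, Gm22478, overlaps Snrnp70 on the other strand, and whether the counting used strand was not given in the sources used here, so reads of overlapping genes cannot be told apart here or below.

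**Figure D2:**
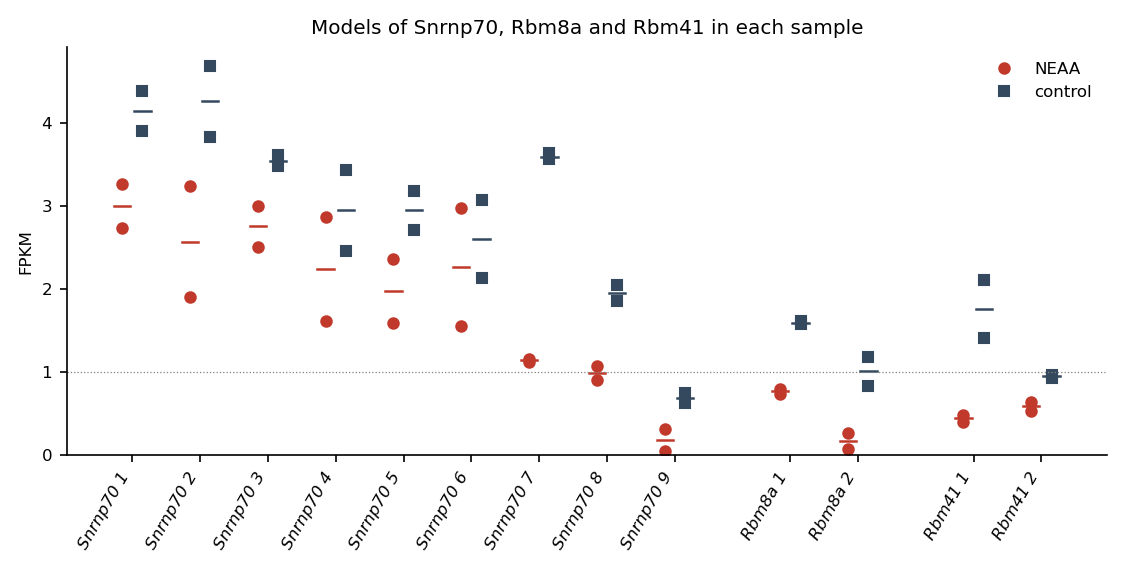
FPKM of each model of Snrnp70, Rbm8a and Rbm41 in the NEAA samples (red circles) and the control samples (dark squares), with the mean of each group as a short line and the limit of 1 FPKM dotted. Snrnp70 model 7 is at 1.12 and 1.16 FPKM in NEAA, against 3.63 and 3.56 FPKM in control.

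Snrpa encodes a core U1 protein that binds a loop of U1 RNA. Its 2 models summed to 1.42 and 1.48 FPKM in NEAA, against 2.56 and 2.45 FPKM in control, without overlap (log2 fold change -0.52, SE 0.12, limma adjusted p = 0.0662). It overlaps BC024978 on the other strand. Prpf39, a U1-associated factor, was the second highest of the group with 14.8 and 17.9 FPKM in NEAA, against 19.0 and 19.5 FPKM in control (-0.23, adjusted p = 0.371). The log2 fold change was -0.10 without NEAA 1, -0.36 without NEAA 2 and -0.02 at a sum of 1000000. Of its 5 tested models, 3 overlapped between groups, while model 5 was lower without overlap, with 0.831 and 1.38 FPKM in NEAA against 1.78 and 1.73 FPKM in control (-0.40, adjusted p = 0.253). Model 6, under the limit, was also lower, with 0.562 and 0.529 FPKM in NEAA against 0.976 and 0.959 FPKM in control. Prpf39 overlaps Fkbp3 on the other strand and the snoRNA gene Gm25970 on its own strand. The whole U1 group summed to 34.3 and 38.4 FPKM in NEAA and 49.9 and 51.1 FPKM in control.

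The genes of the U2 snRNP and U2AF were also mostly lower. Of 13 genes, 11 gene sums were tested and 0 were called. Of the 11, 7 (63.6%) were lower in both NEAA samples than in both control samples, where 34.4% of all gene sums were. Another 1 (9.09%) was higher, where 26.2% of all were, and 3 overlapped. The median log2 fold change was -0.42, against -0.06 over all gene sums. The lowest adjusted p of the group was 0.0878, that of Sf3b3. The unadjusted p was under 0.05 for 5 of the 11 (45.5%), against 30.7% of all gene sums. U2af1, which reads the AG at the end of the intron, had 12.7 and 13.4 FPKM in NEAA, against 18.5 and 17.8 FPKM in control (-0.45, SE 0.13, limma adjusted p = 0.1). Its partner U2af2, which binds the pyrimidine tract, had 10.02 and 11.6 FPKM in NEAA, against 15.7 and 14.9 FPKM in control (-0.47, SE 0.14, adjusted p = 0.111). For both genes the NEAA samples lay below the control samples with a clear gap. At a sum of 1000000 the log2 fold changes were -0.26 for U2af1, -0.28 for U2af2 and -0.32 for Sf3b3. All 3 tested models of U2af1 and all 4 of U2af2 had negative log2 fold changes, from -0.12 to -0.48. U2af1 model 2 and U2af2 model 3 overlapped between groups.

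Sf3b3, a scaffold subunit of the SF3B complex, had 7.29 and 8.16 FPKM in NEAA, against 11.2 and 11.2 FPKM in control (-0.49, SE 0.13, adjusted p = 0.0878). All 4 of its tested models lay lower in both NEAA samples, between -0.26 and -0.55. Cog4 overlaps it on the other strand, and the snoRNA genes Snord111 and Gm22193 on its own strand. Snrpb2, an RNA-binding protein of the U2 snRNP, had 6.61 and 3.83 FPKM in NEAA, against 7.42 and 7.89 FPKM in control, the NEAA samples being far apart (-0.51, SE 0.25, adjusted p = 0.245), and its log2 fold change was -0.84 without NEAA 1 and -0.18 without NEAA 2. The exception was Sf3b1, which holds the branch site. It had 8.43 and 8.63 FPKM in NEAA, against 8.35 and 7.44 FPKM in control, just above control in both NEAA samples (0.10, SE 0.13, adjusted p = 0.64).

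Sf3b2, Snrpa1 and U2af1l4, also of this group, were singled out after their values were seen. Sf3b2, an SF3B subunit, had 7.09 and 5.57 FPKM in NEAA, against 9.82 and 8.66 FPKM in control (-0.49, adjusted p = 0.137). Most of that came from model 2, with 1.35 and 0.714 FPKM in NEAA against 2.91 and 2.76 FPKM in control (-0.93, adjusted p = 0.0918), while model 1 overlapped at 4.14 and 3.40 FPKM in NEAA and 4.48 and 3.55 FPKM in control. The difference between these models did not pass (diffSplice FDR = 0.331). Snrpa1, a core protein of the U2 snRNP, had 3.21 and 3.45 FPKM in NEAA, against 4.58 and 4.66 FPKM in control (-0.38, adjusted p = 0.127). U2af1l4, a relative of U2af1, has 13 models, none of which reached the limit (the highest mean was 0.296 FPKM), and they summed to 1.35 and 1.88 FPKM in NEAA and 1.68 and 1.99 FPKM in control, which overlap.

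**Figure D3:**
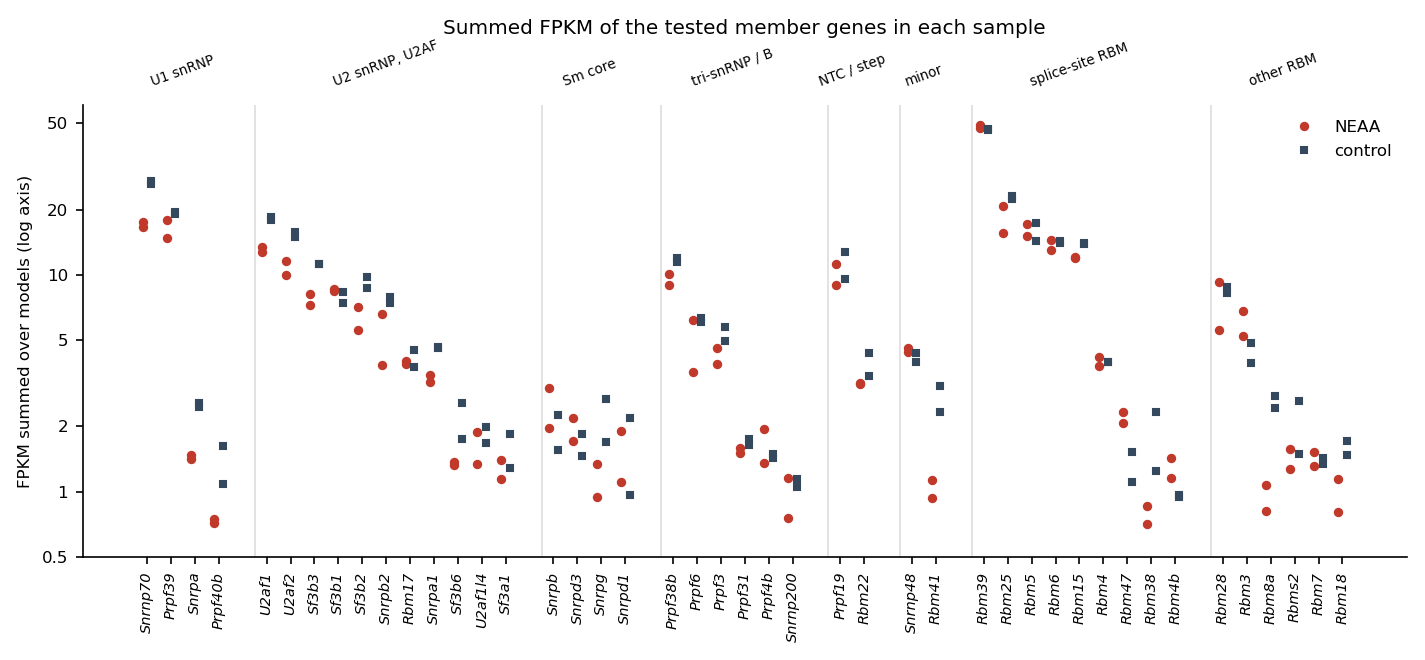
Summed FPKM (log axis) of the 44 tested splicing genes in the NEAA samples (red circles, left) and the control samples (dark squares, right), grouped by role and ordered by level within a role. In the U1 group all 4 tested genes have their NEAA values below their control values, while Rbm39, the highest gene, lies between 46.3 and 48.9 FPKM in all 4 samples.

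The Sm core, the ring of small proteins that snRNPs such as U1 and U2 carry, showed no common direction. Of 4 tested gene sums of 5 genes, 0 were called. Lower without overlap was 1 (25%), where 34.4% of all gene sums were, and the other 3 overlapped. Snrpb had 3.01 and 1.96 FPKM in NEAA and 1.56 and 2.27 FPKM in control (0.25, adjusted p = 0.479; 0.04 to 0.47 leaving out one sample), and Snrpd3 2.19 and 1.71 FPKM in NEAA and 1.46 and 1.84 FPKM in control (0.15, adjusted p = 0.55). Snrpg was the one without overlap, with 0.951 and 1.35 FPKM in NEAA, against 1.70 and 2.68 FPKM in control (-0.56, SE 0.21, adjusted p = 0.158; -0.34 without control 2). That corresponds to about 9 and 12.1 fragments in NEAA and 15.3 and 26.6 in control, so its level is known only roughly. Gucd1 overlaps Snrpd3, and Gm44941 overlaps Snrpg, both on the other strand.

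The tri-snRNP and B complex genes had small differences. Of 6 tested gene sums of 7 genes, 0 were called, with a median of -0.19. Lower without overlap were 3 (50%), where 34.4% of all gene sums were, and 3 overlapped. Prpf38b, related to a yeast factor of spliceosome activation, had 9 and 10.1 FPKM in NEAA, against 11.4 and 12 FPKM in control (-0.27, SE 0.13, adjusted p = 0.252; -0.08 at a sum of 1000000). Prpf3, a U4/U6 protein, had 3.87 and 4.59 FPKM in NEAA, against 5.74 and 4.97 FPKM in control (-0.28, adjusted p = 0.28; -0.12 at a sum of 1000000 and -0.18 without NEAA 1). Prpf6, which bridges U5 to U4/U6, had 3.56 and 6.22 FPKM in NEAA and 6.30 and 6.09 FPKM in control, so a single NEAA sample was low, and without that sample the log2 fold change of -0.33 became 0.01. Zfp512b and Samd10 overlap it on the other strand.

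Among the NTC and step factors, 2 of 3 gene sums were tested and 0 called. Prpf19, the ubiquitin ligase that names the complex, had 11.2 and 9 FPKM in NEAA and 9.56 and 12.7 FPKM in control, and the groups overlapped (-0.13, adjusted p = 0.695). Rbm22, which contacts the catalytic RNA core, had 3.15 and 3.16 FPKM in NEAA, against 4.36 and 3.41 FPKM in control (-0.23, adjusted p = 0.369), or -0.09 without control 1 and -0.07 at a sum of 1000000. Its models did not move together: model 1 had 1.32 and 1.30 FPKM in NEAA, above 1.21 and 1.15 FPKM in control, and model 2 had 0.441 and 0.981 FPKM in NEAA, below 1.56 and 1.03 FPKM in control. The difference between them did not pass (diffSplice FDR = 0.601). Rbm48 was under the limit with 0.803 and 0.987 FPKM in NEAA and 0.829 and 1.23 FPKM in control.

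The minor spliceosome group held 1 of the called gene sums. Of its 3 gene sums, 2 were tested and 1 was called lower, where 4.11% of all gene sums were. Without overlap, 1 was lower and 1 higher. Rbm41 (chromosome X, 139889511 to 139998595, minus strand) encodes a protein that in human cells binds the U12 RNA of the minor spliceosome. Its 2 models summed to 1.13 and 0.934 FPKM in NEAA, against 3.08 and 2.34 FPKM in control, and the highest NEAA sample was well below the lowest control sample. The sums averaged 1.03 ± 0.137 FPKM in NEAA and 2.71 ± 0.521 FPKM in control (SD, n = 2 each). The log2 fold change was -0.86 with an SE of 0.16 (limma, adjusted p = 0.0431). Model 1 alone had 0.486 and 0.399 FPKM in NEAA, against 2.11 and 1.41 FPKM in control, and missed the threshold (adjusted p = 0.0815); it rests on about 14 to 21.8 fragments in the NEAA samples and 54.6 to 89.9 in the control samples. Model 2 was under the limit, with 0.642 and 0.536 FPKM in NEAA against 0.971 and 0.935 FPKM in control. A processed pseudogene, Gm15011, overlaps Rbm41 on the other strand. The call was lost with no filter (adjusted p = 0.0831), after both rescalings (0.065 at a sum of 1000000 and 0.0551 without Gm26917 and Gm42418), with the replicate block (0.0667) and when any sample was left out (0.109 to 0.154). The log2 fold change itself stayed negative, at -0.72 to -1.01 leaving out one sample and -0.86 with the block. It was -1.12 at a sum of 1000000, where the pseudocount weighs less, and -1.30 with a pseudocount of 0.1.

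Snrnp48 and Snrnp25, the other genes of this group, showed no such difference in the same direction. Snrnp48, a U11 protein, had 4.62 and 4.42 FPKM in NEAA, just above 4.37 and 3.97 FPKM in control (0.10, adjusted p = 0.643). Snrnp25, also a U11 protein, was under the limit, with 2.20 and 0.328 FPKM in NEAA and 0.00512 and 0.252 FPKM in control. Its first NEAA sample, at about 45 fragments, stood apart from the second at about 6.36. Both NEAA values were above both control values, but the higher control sample was close to the lower NEAA sample.

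The RBM proteins that act on splice-site choice held the highest values of the whole set and no common direction. Of 9 tested gene sums of 11 genes, 0 were called, with a median of 0.01. Without overlap, 3 (33.3%) were higher and 3 (33.3%) lower, where 26.2% and 34.4% of all gene sums were. The other 3 overlapped. Rbm39, a relative of U2af2, had 48.9 and 47.7 FPKM in NEAA and 47.2 and 46.3 FPKM in control (0.04, SE 0.12, adjusted p = 0.832). Its models did not share a direction. Model 1 was higher in both NEAA samples, with 14.6 and 14.6 FPKM in NEAA, against 10.6 and 11.3 FPKM in control (0.39, SE 0.14, adjusted p = 0.192), and missed the threshold. Model 3 overlapped, with 8.60 and 3.70 FPKM in NEAA and 9.83 and 6.47 FPKM in control (-0.42, adjusted p = 0.576). Rbm25, a regulator of splice-site use, had 15.6 and 20.7 FPKM in NEAA, against 22.4 and 23.1 FPKM in control (-0.33, SE 0.18, adjusted p = 0.29). That value was -0.13 without NEAA 1, -0.52 without NEAA 2 and -0.13 at a sum of 1000000. Rbm5, with 13 models, had 15.1 and 17.2 FPKM in NEAA and 14.3 and 17.4 FPKM in control, and overlapped (0.02, adjusted p = 0.935).

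Lower genes of this group went both ways. Rbm47, a cofactor of APOBEC1 in RNA editing, had 2.08 and 2.32 FPKM in NEAA, against 1.52 and 1.11 FPKM in control (0.47, SE 0.15, adjusted p = 0.121), or about 133 and 140 fragments in NEAA and 92.3 and 74.4 in control. That was the largest positive log2 fold change of the 44 gene sums. Rbm4b had 1.16 and 1.43 FPKM in NEAA, against 0.943 and 0.963 FPKM in control (0.23, adjusted p = 0.317). Rbm38, a p53 target that binds U- and AU-rich RNA, had 0.711 and 0.861 FPKM in NEAA, against 1.25 and 2.33 FPKM in control (-0.62, SE 0.23, adjusted p = 0.153). Rbm42, named here because it sat at the limit, had 1.65 and 1.2 FPKM in NEAA and 0.320 and 0.673 FPKM in control; both NEAA samples were above both control samples, and it was not tested. Antisense genes overlap Rbm38, Rbm47, Rbm25 and Rbm5, and Gm21992 overlaps Rbm4b on the other strand. On the same strand, Gm21982 overlaps Rbm42 and several annotated loci overlap Rbm47.

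The remaining RBM proteins held the other called gene sum. Of 6 tested gene sums of 11 genes, 1 was called lower (16.7%), where 4.11% of all gene sums were. Without overlap, 2 (33.3%) were lower and 1 (16.7%) higher, where 34.4% and 26.2% of all gene sums were. Rbm8a (chromosome 3, 96629933 to 96633791, plus strand) encodes Y14, a subunit of the exon junction complex that marks spliced mRNA. Its 2 models summed to 0.819 and 1.07 FPKM in NEAA, against 2.44 and 2.76 FPKM in control, and the groups were well apart. The sums averaged 0.943 ± 0.175 FPKM in NEAA and 2.60 ± 0.228 FPKM in control (SD, n = 2 each). The log2 fold change was -0.89 with an SE of 0.14 (limma, adjusted p = 0.0334), the largest among the 44 gene sums. Model 1 had 0.741 and 0.8 FPKM in NEAA, against 1.61 and 1.58 FPKM in control (adjusted p = 0.0922), and model 2, under the limit, had 0.0784 and 0.267 FPKM in NEAA, against 0.834 and 1.18 FPKM in control. Model 1 rests on about 9.12 to 11.3 fragments in each NEAA sample and 18.8 to 24.7 in each control sample. Model 2, which is part of the called sum, rests on fewer. It had about 0.966 to 1.17 fragments in NEAA 1, 3.13 to 3.77 in NEAA 2 and 9.77 to 18.4 in the control samples. A near copy, Rbm8a2, exists in the mouse, and reads shared with it could be split. The call held after rescaling without Gm26917 and Gm42418, and was lost with no filter (0.0671), at a sum of 1000000 (0.0648), with the replicate block (0.0609) and when any sample was left out (0.0794 to 0.149). The log2 fold change was -0.80 to -0.98 leaving out one sample and -0.89 with the block. It was -1.20 at a sum of 1000000, where the pseudocount weighs less, and -1.38 with a pseudocount of 0.1.

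In the same group, Rbm3, a cold-induced RNA-binding protein, had 6.79 and 5.22 FPKM in NEAA, against 3.92 and 4.85 FPKM in control (0.38, SE 0.18, adjusted p = 0.242; 0.21 without NEAA 1 and 0.25 without control 1), and both of its models were higher in both NEAA samples. Rbm3os overlaps it on the other strand. Rbm28, a nucleolar protein whose gene overlaps the miRNA gene Gm24303 on the same strand, had 5.57 and 9.23 FPKM in NEAA and 8.28 and 8.81 FPKM in control (-0.22, adjusted p = 0.579). Its model 1 was lower, with 2.80 and 2.98 FPKM in NEAA against 5.13 and 5.27 FPKM in control (-0.67, SE 0.12, adjusted p = 0.0758), while model 3 stood at 0.368 and 3.96 FPKM in NEAA and 0.829 and 1.29 FPKM in control, so the overlap of the sums came with that one high NEAA value. Rbm18 had 0.811 and 1.14 FPKM in NEAA, against 1.71 and 1.48 FPKM in control (-0.40, SE 0.15, adjusted p = 0.163), and overlaps Mrrf on the other strand. Rbms3 and the 2 models of Rbm24 were listed at 0 in all 4 samples.

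**Figure D4:**
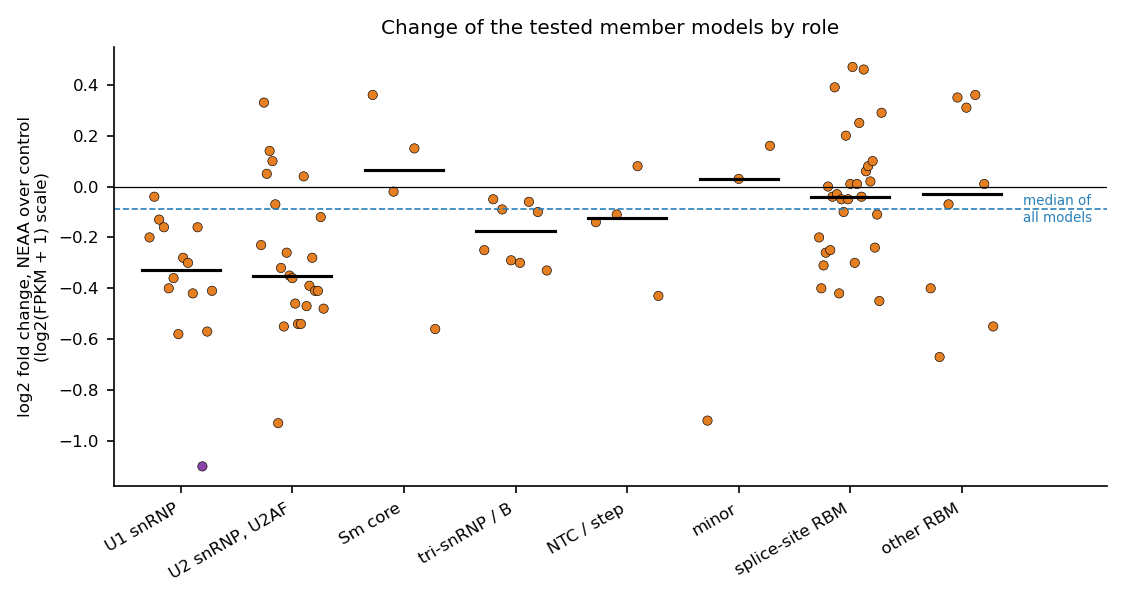
Log2 fold change, NEAA over control, of the 93 tested splicing models by role (points), with the median of each role as a black line and the median of all models, -0.09, dashed. The U1 models, which come from 3 genes, are all below 0, with the called Snrnp70 model 7 in purple at -1.10. The models of splice-site RBM proteins spread on both sides of 0.

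Whether the models of one gene changed unlike each other was asked for the 20 splicing genes with at least 2 tested models. All tested models had a negative log2 fold change in 10 of them, all a positive one in 3, and both signs occurred in 7. Of the 76 models in the diffSplice test, 0 passed an FDR under 0.05, the lowest FDR being that of Snrnp70 model 7 at 0.19; in the series 0.792% of 3790 models passed. Among the 83 models under the limit, the NEAA mean was lower in 49 and higher in 29. The matching share over all models under the limit was not worked out, so nothing is read from this count.

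Other genes of the spliceosome, listed by name and outside the prefixes, gave similar medians and few calls. Their models summed to 441.9 and 454.6 FPKM in NEAA and 360.4 and 485.5 FPKM in control, which overlap, unlike the sums of the splicing genes. Of 71 such genes with 193 models, 81 models were tested and 0 called, with a median log2 fold change of -0.14. In the series 0.956% of models were called lower and 1.95% higher. Of the 81, 14 had an unadjusted p under 0.05 by limma, where 25.9% of all models did. Of 55 gene sums tested, 1 was called lower (1.82%, where 4.11% of all gene sums were), with a median of -0.17. The called one was Zrsr2, a U2AF-related protein that acts mainly in the minor spliceosome. It had 2.78 and 2.70 FPKM in NEAA, against 5.30 and 5.30 FPKM in control (log2 fold change -0.75, SE 0.12, limma adjusted p = 0.0341). Genes of SR and hnRNP proteins, which bind pre-mRNA and steer splicing, had 56 models tested with 0 called and a median of -0.06. Of these, 4 had an unadjusted p under 0.05, where 25.9% of all models did. Their 22 tested gene sums had 0 called and a median of -0.12, and 2 had an unadjusted p under 0.05, where 30.7% of all gene sums did. The difference between these lists and the core genes was not tested.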

How the data were processed

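For each sample the authors deposited FPKM values of 37363 models with gene identifiers and no transcript names. Trizol-extracted total RNA went into a NEBNext Ultra RNA library kit, per the labels' protocols. The builds GRCm38 and mm10 are named in the submitters' processing notes; aligner, counting program, annotation release and strand setting were not given in the sources used here. Symbols, classes, coordinates (1-based) and transcripts came from GENCODE M21.

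Samples were grouped by label. Models, and sums per gene, with a mean of at least 1 FPKM were fitted as log2(FPKM + 1) with limma 3.58.1 in R 4.3.3 (lmFit, eBayes with trend, 2-sided, Benjamini-Hochberg over all 6064 models or 4700 gene sums); fold changes on this scale understate changes of low models. diffSplice compared models within genes. The pipeline was tested on simulated data. Means and SDs are of FPKM. Intervals were not given because the fragment totals are estimates.

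Alternatives were pseudocounts of 0.1 and 0.5, no filter, at least 5 FPKM, quantile normalization, both rescalings, no variance trend, a replicate block, and leaving out each sample. The genes named were those called, the 3 highest and up to 2 largest non-overlapping changes each way in every role group, and the models at the limit. The members and lists were chosen with earlier results of these data known.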

Additional observations from a re-analysis of the deposited data

How the results depend on the processing

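Against 1 splicing model called lower, 0 were called with no filter on level, after rescaling to a sum of 1000000, with the replicate block, and without any one sample (0 to 0). At a mean of at least 5 FPKM 0 were called, since that filter takes the called model out of the test. Against 2 gene sums called lower, 0 were called with no filter, at a sum of 1000000, with the replicate block and without any one sample (0 to 0). At a mean of at least 5 FPKM 1 was called, Snrnp70 (-0.61, limma adjusted p = 0.0423), for which fewer gene sums were tested, and 1 after rescaling without Gm26917 and Gm42418, Rbm8a. Under these settings 0 splicing models and 0 splicing gene sums were called higher. The other causes of these losses were not tested. In the whole series, the setting with no filter left 0 of 25076 models and 244 of 12256 gene sums called. At a sum of 1000000, 179 of 20104 models and 581 of 9433 gene sums were called. Over the series, the replicate block left 0 models and 185 gene sums called, of 176 and 475, and leaving out a sample left 0 models and 0 to 88 gene sums. The labels do not say that the numbers pair samples, and the deviations of same-numbered samples correlated at -0.00192. Signs turned for Prpf19 at a sum of 1000000 (0.08) and, leaving out one sample, for Prpf19 (-0.31 to 0.06), Prpf6 (-0.66 to 0.01), Rbm28 (-0.54 to 0.10), Rbm5 (-0.11 to 0.15), Rbm5 model 8 (-0.01 to 0.04) and Sf3b1 model 3 (-0.19 to 0.16), none of which passed the test. Of 455 values under alternatives, 406 kept their direction and side of the threshold, most of them values that were not called to begin with, 39 lost a call or were counts of calls that fell, 9 changed sign and 1 gained a call. Models with few fragments, as in Rbm8a and Snrpg, limit what can be seen.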
